A study of Caenorhabditis elegans with 2 samples.

Results

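The heterochronic genes studied here are 9 protein-coding genes that set the timing of cell fates in the larva of Caenorhabditis elegans: lin-14, lin-28, lin-41, lin-42, lin-46, lin-29, lin-66, hbl-1 and daf-12. They were taken as a fixed list, 9 of 19973 protein-coding genes, and their peaks were all peaks with at least 1 bp between 5000 bp upstream of the first annotated start and the end of the gene. The data are peaks of MAB-9, a T-box transcription factor, from chromatin immunoprecipitation and sequencing (ChIP-seq) with an antibody against GFP. The antibody label of both samples names mab-9. There was 1 group with 2 biological replicates. It came from whole L1 larvae of strain RW12257, whose own mab-9 gene carries TY1, EGFP and 3xFLAG inserted by CRISPR (allele st12257). Larvae were synchronised by starvation after bleaching and were 6 hours old. Both replicates came from this single strain, all larvae carried the tag, and control libraries were not analysed here. In whole larvae the cells behind a peak cannot be told apart. The peak lists hold no read counts, and sequencing depth is therefore unknown.

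MAB-9 is known for its part in cell fates of the hindgut and the male tail and in some motor neurons. Heterochronic genes order the stage-specific divisions and fates of the hypodermal seam and other lineages. Early-acting regulators such as LIN-14, LIN-28 and HBL-1 are known to hold cells in early larval fates, the microRNAs lin-4 and let-7 and their relatives switch these regulators off in turn, and LIN-29 then directs the change from larva to adult. Hatching into starvation arrests larvae at the L1 stage, when LIN-14 is known to be abundant.

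Of the 9 genes, 6 carried at least 1 peak of the conservative list, which holds 1431 peaks, was derived by the authors from both replicates and is used here unless another list is named: lin-14, lin-28, lin-41, lin-46, lin-66 and daf-12. Over all protein-coding genes the same rule found a peak at 11.7%. There were 10 such peaks in all, 5 of them at lin-14 and 1 at each of the other genes. No conservative peak lay in the windows of lin-42, lin-29 and hbl-1. The windows ran from 6876 bp at lin-46 to 35968 bp at daf-12, and longer windows hold a peak more often. Among genes whose window was within 20% of a member's length, the share with a conservative peak was 9.70% for windows like that of lin-46 and 24.7% for windows like that of lin-29, the lowest and the highest of the 9. The 9 windows held 6.35 conservative peaks per 100 kb, with 19.8 at lin-14 and 3.79 over the other 8 windows, against 1.43 over the whole genome. The genome figure covers all sequence and not only gene windows.

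**Figure D1:**
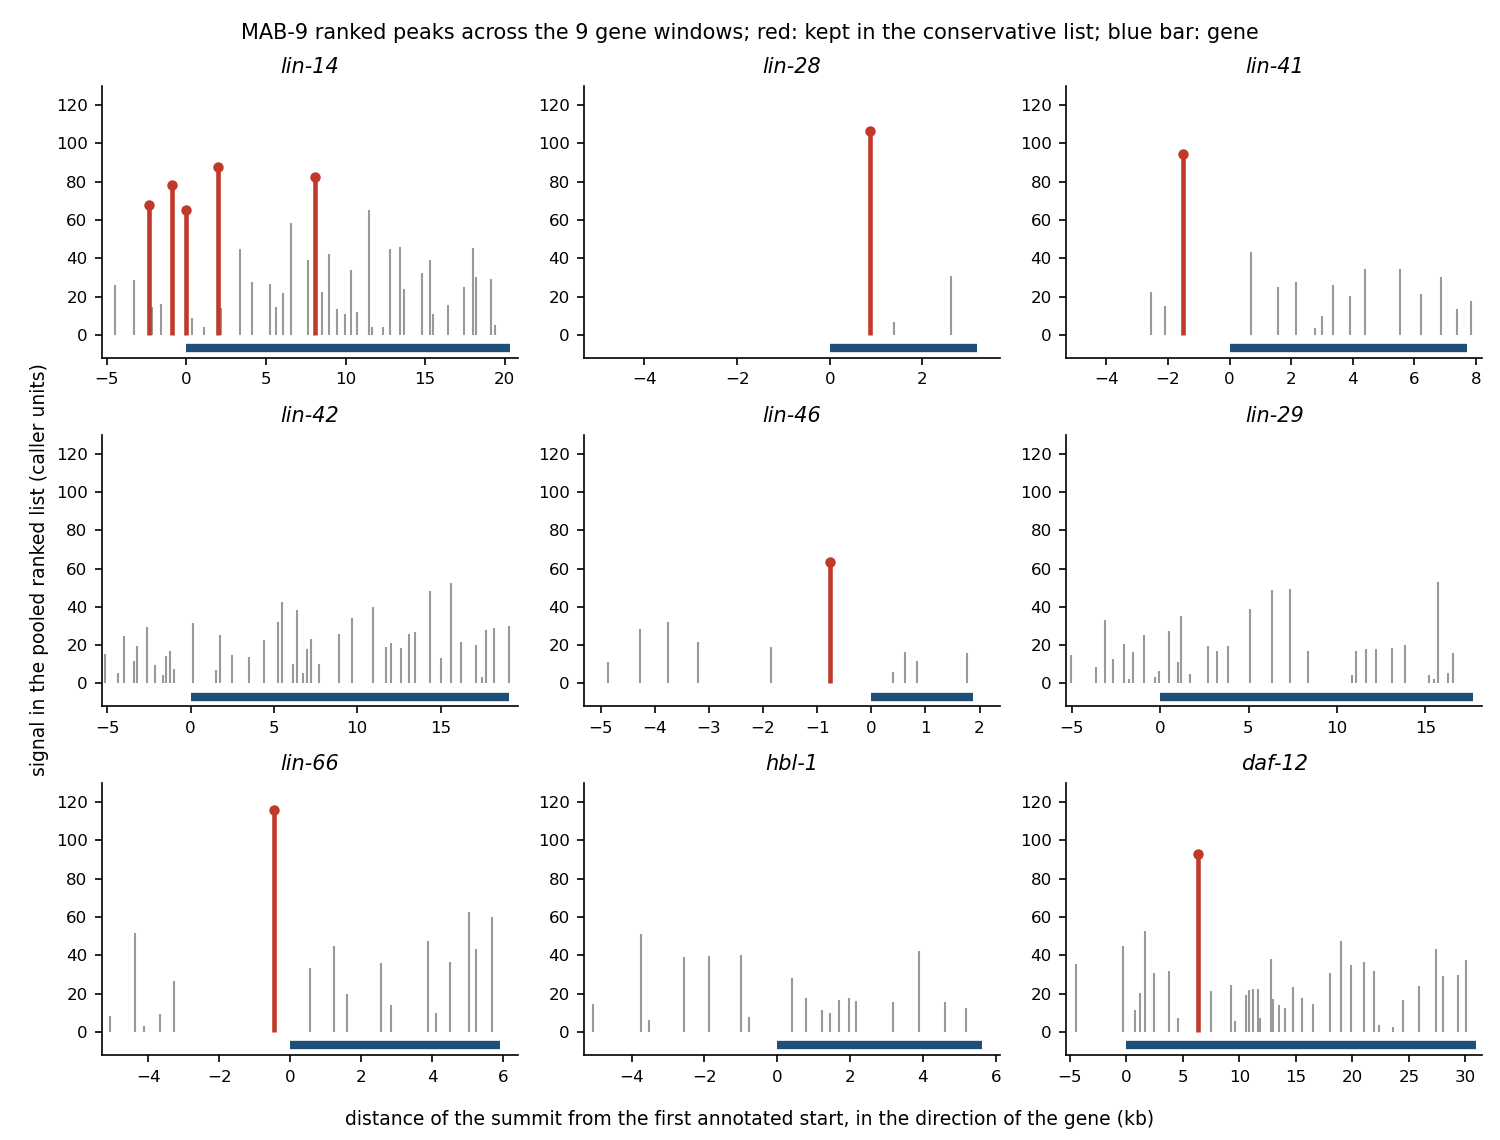
Each panel shows 1 gene. Vertical lines are peaks of the pooled ranked list at the distance of their summit from the first annotated start in kb, and their height is the signal in the units of the peak caller. Red lines with a point are the 10 peaks kept in the conservative list, grey lines are ranked peaks that were not kept, and the blue bar is the gene. The red peaks stand at or upstream of the first start at lin-14, lin-41, lin-46 and lin-66 and inside the gene at lin-14, lin-28 and daf-12, and lin-42, lin-29 and hbl-1 have grey lines only.

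The sequences under the summits show what DNA these peaks cover. They come from the RefSeq assembly WBcel235, the build ce11 of the files, and run 5′ to 3′ on the plus strand, which is also the strand of these genes. Each is a summit with 100 bp on either side, except for the peak at the first start of lin-14, which is given only up to the base before that start. Capitals mark matches on either strand to the sequence patterns searched, which are spelled out with their counts after the values of the genes. The lin-66 window is shown because its peak was the only 1 of the 10 found in both replicates' own lists. The lin-14 windows at the first start and before it are shown because this gene held 5 peaks. The lin-46 window is shown for the weakest of the 10 peaks and the daf-12 window for the peak with the strongest lean to replicate 2.
lin-66, 456 bp upstream of the first start, chrIV:13887523-13887723: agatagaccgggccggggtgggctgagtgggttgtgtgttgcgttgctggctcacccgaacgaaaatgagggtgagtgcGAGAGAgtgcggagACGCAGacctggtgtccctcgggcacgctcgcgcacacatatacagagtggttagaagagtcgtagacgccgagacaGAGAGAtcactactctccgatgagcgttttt
lin-14, 896 bp upstream of the first start, chrX:11464564-11464764: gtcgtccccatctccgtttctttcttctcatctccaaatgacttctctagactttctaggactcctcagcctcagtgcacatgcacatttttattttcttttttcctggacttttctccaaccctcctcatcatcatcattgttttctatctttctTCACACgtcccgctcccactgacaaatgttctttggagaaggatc
lin-14, up to the first start, chrX:11465439-11465559: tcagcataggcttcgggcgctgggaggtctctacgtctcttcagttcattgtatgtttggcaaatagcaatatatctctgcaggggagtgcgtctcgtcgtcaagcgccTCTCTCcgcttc
lin-46, 763 bp upstream of the start, chrV:12967992-12968192: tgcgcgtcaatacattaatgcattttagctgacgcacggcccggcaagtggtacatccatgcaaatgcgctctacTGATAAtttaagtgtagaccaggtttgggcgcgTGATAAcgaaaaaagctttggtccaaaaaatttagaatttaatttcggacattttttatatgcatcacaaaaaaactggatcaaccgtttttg
daf-12, 6374 bp downstream of the first start, chrX:10642182-10642382: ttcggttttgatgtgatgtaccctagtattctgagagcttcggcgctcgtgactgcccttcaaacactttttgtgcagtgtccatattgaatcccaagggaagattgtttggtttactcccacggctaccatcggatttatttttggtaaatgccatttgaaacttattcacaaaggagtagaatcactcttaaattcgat

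lin-14 encodes a nuclear protein that specifies the earliest larval fates and is the classic target of the lin-4 microRNA. The gene (WBGene00003003) lies on chromosome X from 11465560 to 11485871 on the plus strand, with 2 annotated starts, and its 5 conservative peaks spread over both sides of the first one. Coordinates are of the ce11 build throughout. The signal of a peak is the value the authors' peak caller gave it in both replicates combined. Its scale is not stated, and the replicate values, taken from each replicate's own ranked list, are lower than the combined one. The peak farthest upstream, from 11463050 to 11463369, had its summit 2350 bp before the first start and a signal of 67.8 (42.3 in replicate 1 and 35.95 in replicate 2, mean 39.1 ± 4.48 (SD, n = 2)). The promoter peak, from 11464504 to 11464823, lay 896 bp upstream with a signal of 78.1 (52.9 and 29.02, mean 40.96 ± 16.9 (SD, n = 2)), within 200 bp of the noncoding RNA gene T25C12.10. The peak from 11465379 to 11465698 lay on the first start itself, with its summit 21 bp upstream and the weakest signal of the 5, 65.3 (37.5 and 30.5, mean 33.96 ± 4.96 (SD, n = 2)). These 3 peaks thus covered the region before and at the first start, and none was in the thresholded list of either replicate. For the peak on the first start, the replicate 2 value came from a ranked peak shifted upstream, from 11465238 to 11465537. Its summit was at 11465388, against 11465527 in replicate 1 and 11465539 in the pooled list. The 2 replicate values there are thus not from the same summit.

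The remaining lin-14 peaks lay in introns. The strongest of the 5, from 11467354 to 11467673, had its summit 1954 bp downstream of the first start, within 200 bp of the noncoding RNA gene T25C12.7, with a signal of 87.7 (46.2 and 32.8, mean 39.5 ± 9.45 (SD, n = 2)). The other, from 11473469 to 11473788, lay 8069 bp downstream of the first start and 6732 bp upstream of the start of transcript T25C12.1b.1, with a signal of 82.6 (41.5 and 35.6, mean 38.5 ± 4.18 (SD, n = 2)). Replicate 1 gave the higher value at all 5 lin-14 peaks, by a log2 ratio of 0.22 to 0.87. Over all 1346 conservative peaks matched in both replicates the median log2 ratio was 0.21 (SD 0.43 across peaks), so 4 of the 5 lay within 1 SD of it and the promoter peak lay beyond. The nearest protein-coding start to each of the 5 summits was that of lin-14, and its window held the start of no other protein-coding gene. Across the genome 6 protein-coding genes had 5 or more conservative peaks in their window, namely lin-14, mdl-1, mnk-1, W06H8.6, mstr-1 and zfp-1. The others had shorter windows, from 6549 bp at mdl-1 to 19771 bp at zfp-1, against 25312 bp at lin-14. Of the 279 genes with a window within 20% of the length of that of lin-14, lin-14 was the only 1 with as many. The others of the 6 fell below that range of lengths.

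All 5 lin-14 peaks were weaker than the middle of the list. Their ranks by signal in the conservative list were 877 to 1299 of 1431, with a median signal of 78.1 against 98.7 over the whole list. The irreproducible discovery rate, which measures how poorly a peak's rank repeats between lists and was at most 0.01 in every kept peak, was 0.0038 to 0.00872 at the 5 peaks. In the other pooled list 4 of these peaks were kept and the peak on the first start was not, with a rate of 0.0169 there. That list also held a weak peak of signal 14.8, from 11463256 to 11463575, which overlapped the upstream peak. Its rate was 0.727 in the ranked list behind the conservative list. In replicate 1 the promoter peak came closest to the threshold with a rate of 0.0138, and in replicate 2 the intron peak at 1954 bp did with 0.0598. The peak on the first start had a rate of 0.0498 in replicate 1 and of 0.829 in replicate 2, where the matched peak was shifted.

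lin-28 encodes an RNA-binding protein that blocks maturation of the let-7 microRNA and keeps early larval programmes on. The gene (WBGene00003014) lies on chromosome I from 8407630 to 8410804 on the minus strand and has 2 annotated starts. Its peak spanned 8409784 to 8410103, with a signal of 106 and rank 636 of 1431, the second highest of the 10 (57.9 in replicate 1 and 52.3 in replicate 2, mean 55.1 ± 3.95 (SD, n = 2)). The summit lay in an intron of the longer transcript, 860 bp downstream of the first start, and 24 bp upstream of the start of the shorter transcript F02E9.2b.1. It was in the thresholded list of replicate 1, at a rate of 0.006, and not in that of replicate 2, where the rate was 0.0368. The signal itself was similar in the replicates, with a log2 ratio of 0.15.

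lin-66 encodes a protein known to lower lin-28 expression, and its peak was the strongest of the set. The gene (WBGene00001562) lies on chromosome IV from 13888079 to 13893986 on the plus strand. The peak, from 13887463 to 13887782, had its summit 456 bp upstream of the first start and a signal of 116, rank 534 of 1431 (64.6 in replicate 1 and 54.6 in replicate 2, mean 59.6 ± 7.07 (SD, n = 2)). It was in both replicates' thresholded lists, at rank 511 of 824 and rank 565 of 869. Among all conservative peaks 39.1% were in both lists, against 1 of the 10 peaks here. The window around its summit had the highest GC content of the 10, 57.7%.

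lin-46 encodes a scaffold-like protein that acts downstream of lin-28 and limits HBL-1. The gene (WBGene00003031, chromosome V, 12968855 to 12970730, plus strand) had the weakest peak of the set, from 12967932 to 12968251, with its summit 763 bp upstream. The signal was 63.5, rank 1316 of 1431 (34.7 in replicate 1 and 42.3 in replicate 2, mean 38.5 ± 5.38 (SD, n = 2)). Neither replicate's thresholded list held it, with rates of 0.154 in replicate 1 and 0.0164 in replicate 2. This was the only 1 of the 10 summits nearer to another protein-coding gene, R186.8, whose start lay 110 bp away. Which of these genes the peak belongs to cannot be told apart from position.

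lin-41 encodes a TRIM-NHL RNA-binding protein and is a main target of let-7. The gene (WBGene00003026) lies on chromosome I from 9334800 to 9342496 on the minus strand. Its peak, from 9343840 to 9344159, had its summit 1504 bp upstream of the first start and a signal of 94.5, rank 761 of 1431 (41.4 in replicate 1 and 43.95 in replicate 2, mean 42.7 ± 1.79 (SD, n = 2)). These were the closest replicate values of the 10 peaks. The replicate 1 list held it at rank 800 of 824 and the replicate 2 list did not, with a rate of 0.0243. The pooled lists disagreed on it: the rate was 0.00289 in the ranked list behind the conservative list and 0.416 in the ranked list behind the other pooled list, which did not keep it. Both pooled ranked lists carry the same signal at each of the 10 peaks and differ in the rate.

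daf-12 encodes a nuclear hormone receptor that couples developmental timing to food and the dauer decision. The gene (WBGene00000908) lies on chromosome X from 10635908 to 10666875 on the plus strand and has 9 annotated starts. Its peak, from 10642122 to 10642441, lay in an intron, 6374 bp downstream of the first start and 2127 bp upstream of the start shared by transcripts F11A1.3e.1 and F11A1.3g.1. The signal was 92.7, rank 790 of 1431 (36.03 in replicate 1 and 56.8 in replicate 2, mean 46.4 ± 14.7 (SD, n = 2)). The log2 ratio of replicate 1 to replicate 2 was -0.66, lower than at all but 2.67% of matched conservative peaks. The replicate 2 list held the peak at rank 529 of 869, and replicate 1 had a rate of 0.109 there.

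**Figure D2:**
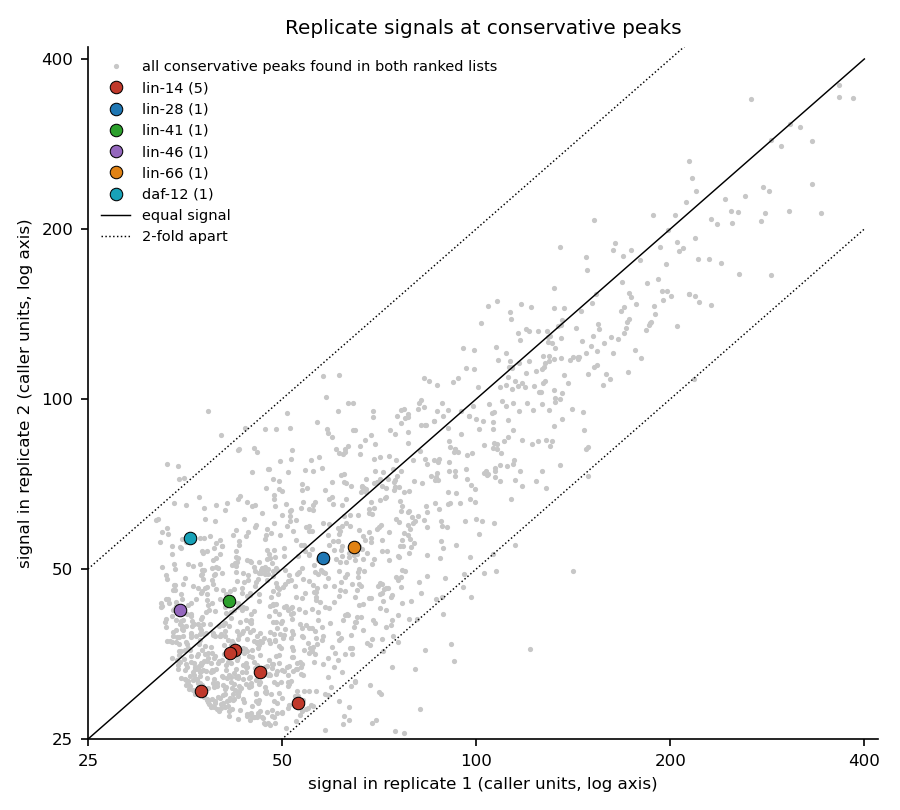
Each point is a conservative peak, with its signal in replicate 1 on the horizontal axis and in replicate 2 on the vertical axis, both in caller units on log axes. Grey points are all matched conservative peaks and coloured points are the 10 peaks of the heterochronic genes. The solid line marks equal signal and the dotted lines a 2-fold difference. All 10 coloured points lie between the dotted lines and in the lower left part. The 5 lin-14 peaks, lin-28 and lin-66 lie on the replicate 1 side, as does the median of all matched peaks (log2 ratio 0.21). The daf-12 peak lies farthest to the replicate 2 side.

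Signals of the 10 peaks were 63.5 to 116 with a median of 85.1, below the 98.7 of the conservative list, and 8 of the 10 were under that value. Between the replicates all 10 lay within 2-fold, as did 91.2% of all conservative peaks, a share that counts unmatched peaks as outside. At the first start of lin-14 this rests on the shifted replicate 2 peak, with its rate of 0.829. Yet 6 of the 10 were in neither replicate's thresholded list, against 34.4% of all conservative peaks. Replicate 1's list held 3 of them, at lin-28, lin-41 and lin-66, and replicate 2's list held 2, at lin-66 and daf-12. In the other pooled list 5 of the 9 genes had a peak, against 12.1% of all protein-coding genes. In replicate 1's own list it was 3 of 9 against 7.6%, and in replicate 2's 2 of 9 against 8.03%. Among conservative peaks stronger than the list's median only lin-28 and lin-66 had one, 2 of 9 against 6.88%. When each summit was given only to its nearest protein-coding start, 5 of 9 genes were called against 5.51%.

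**Figure D3:**
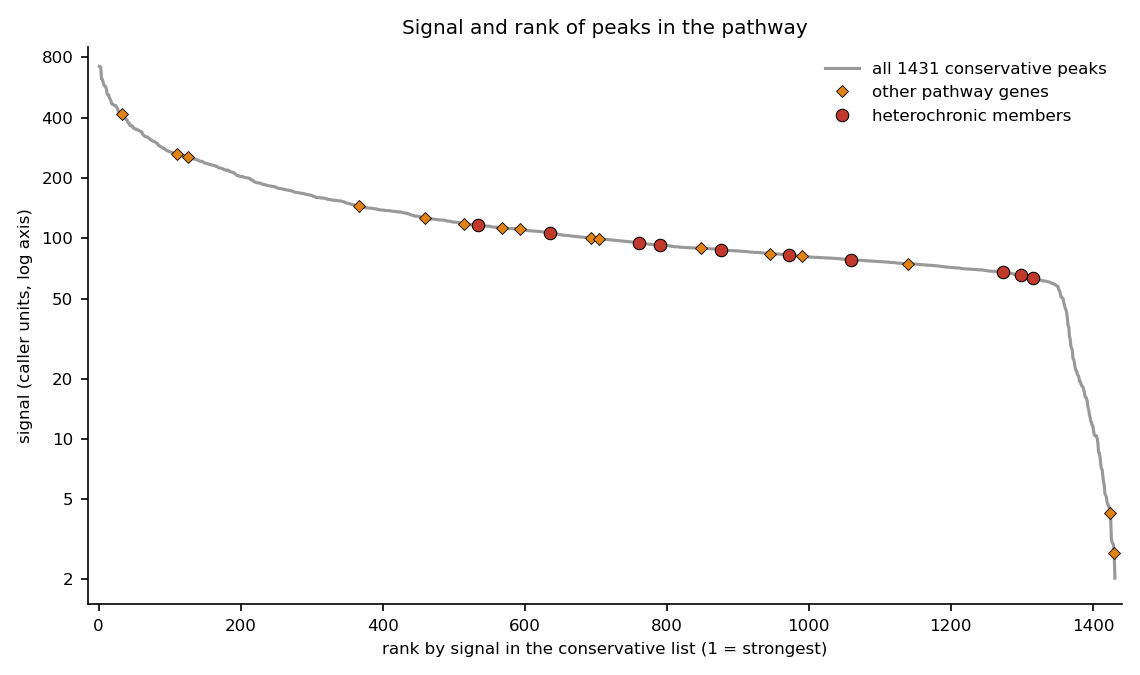
The grey line shows the signal, in caller units on a log axis, of every conservative peak by its rank. Red circles are the 10 peaks of the heterochronic genes and orange diamonds the 16 peaks of the other pathway genes. The red circles lie between ranks 534 and 1316, and the highest diamonds, at nhl-2, puf-9 and drsh-1, at ranks 33, 111 and 126.

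Most of the 10 summits lay near starts or in introns. A summit was first called promoter if it lay at most 1000 bp before or 250 bp after the closest start of a protein-coding gene. By this rule 5 of the 10 were promoter summits, 3 were in introns, 2 were intergenic and 0 were in exons. Over all conservative peaks the shares were 55.6% promoter, 14.2% intron, 25.8% intergenic and 4.40% exon. The 5 promoter summits were at lin-14 (896 and 21 bp upstream), lin-28, lin-46 and lin-66. All 10 peaks had the width of 320 bp, as did 90.6% of the list. Summits within 200 bp of a noncoding RNA gene numbered 2 of 10, both at lin-14, against 21.9% of all.

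The peaks had little of the searched sequence in common. GC content around the summit was 39.3 to 57.7% with a median of 47.5%, against 44.8% over the list. Patterns were searched on both strands within 100 bp of the summit. The T-box sequence AGGTGTGA was in 0 of the 10 windows and in 0.210% of all conservative windows. Of its overlapping parts, AGGTGT was in 0 of 10 (4.96% of all), GGTGTG in 0 of 10 (7.62% of all) and GTGTGA in 2 of 10 (10.7% of all), both at lin-14. The match 896 bp upstream of lin-14 is the TCACAC stretch in capitals above, with its centre 58.5 bp from the summit. The GATA pattern TGATAA occurred at lin-46 only, at 2 places, with centres 22.5 bp to one side and 10.5 bp to the other side of the summit (8.39% of all windows held it). CAGCTG and the nuclear receptor pattern AGGTCA occurred at lin-28 only, overlapping by 2 bp, against 6.15% and 3.77% of all. GAGAGAGA and CACGTG were in 0 of 10, against 9.64% and 7.20%. The 6-mers GAGAGA and ACGCAG, added because earlier results had shown them frequent in the whole list, were in 4 and 2 of the 10, against 37.7% and 22.2% of all. The lin-66 window held both, with ACGCAG 4.5 bp from the summit. The daf-12 window and the lin-14 windows 2350 bp upstream and 1954 bp downstream held none of these sequences. With the 9 patterns alone, 4 of 10 windows held at least 1, against 44.3% of all.

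lin-42, lin-29 and hbl-1 had ranked peaks but none that were kept. LIN-42 is the worm relative of the Period clock protein, LIN-29 is the zinc finger factor of the adult switch and HBL-1 is a Hunchback-like zinc finger factor of early larval fates. At lin-42 (WBGene00018572, chromosome II, 1233236 to 1252359, minus strand) the strongest of 42 ranked peaks had a signal of 52.7, a rate of 0.0519 and a summit in a 5′ UTR, 15618 bp downstream of the first of its 5 annotated starts and 228 bp downstream of a later one. At lin-29 (WBGene00003015, chromosome II, 11917642 to 11935343, minus strand) the strongest of 32 had a signal of 53.1 and a rate of 0.101, in an intron 15694 bp downstream of the first start. At hbl-1 (WBGene00001824, chromosome X, 5822142 to 5827755, plus strand) the strongest of 18 had a signal of 51.1 and a rate of 0.0814, 3736 bp upstream. These signals lay below those of the 10 kept peaks and close to those of other genes without a conservative peak and with windows within 20% of the same length. There the median of the strongest signal was 53.02 for genes like lin-42, 52.7 for genes like lin-29 and 46.2 for genes like hbl-1, and 47.2%, 52.2% and 68.7% of them had a lower value. No peak in any of the 9 windows met the 0.01 threshold in a ranked list without being in the matching kept list.

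Other genes of the pathway were taken from a list of 46, and 11 had a conservative peak in their window. Of these, 7 belong to the group listed as microRNA pathway, which held 11 genes, against 11.7% of all protein-coding genes. These 7 genes had 8 peaks with a median signal of 135, against 98.7 over the conservative list. Of these 8 peaks 5 were in both replicates' thresholded lists, against 39.1% of all conservative peaks. For 3 of the 8, at nhl-2, drsh-1 and xrn-2, the nearest start was that of another gene. Their signals of 415, 254 and 144 raise the median, and those at nhl-2 and drsh-1 were in both lists. The strongest of the 8 was at nhl-2, a TRIM-NHL cofactor of microRNA silencing, with a signal of 415 and rank 33 (198 in replicate 1 and 199 in replicate 2, mean 198.9 ± 0.765 (SD, n = 2)). It lay 815 bp upstream of nhl-2 and 608 bp from the start of tag-340, which was nearer. puf-9, a Pumilio-family RNA-binding protein gene, had a signal of 263 (117 and 147, mean 132 ± 21.01 (SD, n = 2)) with the summit 314 bp upstream. alg-1, which encodes an Argonaute of the microRNA complex, had a signal of 127 (68.9 and 51.1, mean 60.03 ± 12.6 (SD, n = 2)) at 3410 bp upstream. ain-1, a GW182-family partner of Argonaute, had 2 peaks, with signals of 113 and 83.9 at 589 and 1031 bp upstream. pash-1, which encodes the partner of Drosha, had a signal of 89.2 at 102 bp upstream.

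The peaks at drsh-1 and xrn-2 were nearer to other genes. The drsh-1 peak, with a signal of 254, lay 2973 bp upstream of that Drosha gene and 28 bp upstream of cox-5B. The xrn-2 peak, with a signal of 144, lay 1229 bp upstream of that exonuclease gene and 166 bp upstream of Y48B6A.1. Counted by nearest start, alg-1, ain-1, pash-1 and puf-9 were thus the ones left of the 11 listed microRNA pathway genes. By that count 5.51% of all protein-coding genes were called. alg-2, ain-2, dcr-1 and pup-2 had no conservative peak.

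Among heterochronic microRNAs, 1 of 6 had a conservative peak in its window, against 14.6% of 261 annotated microRNA genes. It was let-7, whose window held a peak of signal 74.7 (34.1 in replicate 1 and 45.9 in replicate 2, mean 40.02 ± 8.32 (SD, n = 2)), 1846 bp upstream of the start of the gene. That summit was 136 bp from the start of C05G5.2, and the peak was in neither replicate's thresholded list nor in the other pooled list. lin-4, mir-48, mir-84, mir-241 and mir-237 had none.

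Among partners and regulators of the pathway, 3 of 14 were called, against 11.7% of all protein-coding genes. The 14 include lep-5, a noncoding RNA gene without a conservative peak, which the share over protein-coding genes does not cover. din-1, which encodes a corepressor of DAF-12, had 3 peaks: 1614 and 702 bp upstream of the first start with signals of 119 and 111, and one with a signal of 100.5 in a 5′ UTR, 79 bp downstream of an internal start. myrf-1 and myrf-2 encode membrane-bound transcription factors known to activate lin-4 transcription. Their main peaks lay 275 bp upstream of myrf-1 (signal 99.7, with 70.7 and 30.3 in the replicates) and 153 bp upstream of an internal start of myrf-2 (signal 81.4, with 32.5 and 42.9). The replicates differed by more than 2-fold at this myrf-1 peak and at the din-1 peak 702 bp upstream (35.2 and 72.5). A weak peak overlapping the main one had a signal of 4.26 at myrf-1 and 2.69 at myrf-2. Of 15 seam cell and later target genes 0 were called, against 11.7% of all protein-coding genes. The list of 15 held the seam regulators rnt-1, bro-1, ceh-16, elt-1, egl-18 and elt-6 and the adult collagen gene col-19. All these groups of pathway genes are small, and their differences from the share over all genes were not tested.

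**Figure D4:**
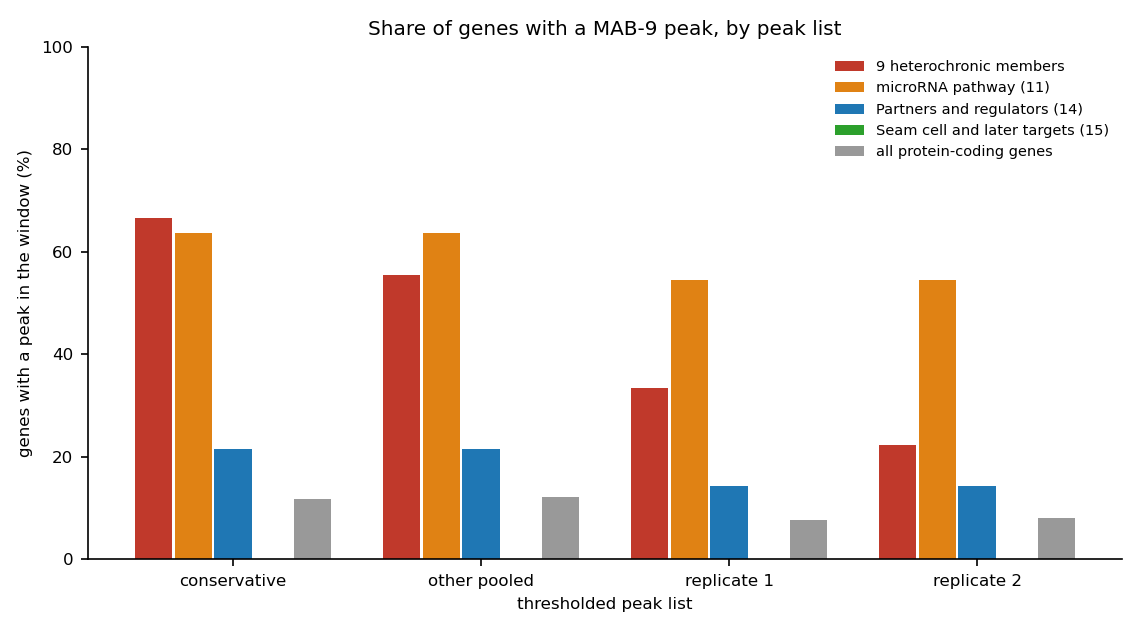
Bars give the percentage of genes with a peak in their window in each of the 4 thresholded lists. Red is the 9 heterochronic genes, orange the 11 microRNA pathway genes, blue 14 partners and regulators, green 15 seam cell and later targets, which are at 0 in every list, and grey all 19973 protein-coding genes. The blue group includes the noncoding RNA gene lep-5. The red bars fall from 6 of 9 in the conservative list to 3 of 9 and 2 of 9 in the replicates' own lists, and the orange bars fall from 7 to 6 of 11.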

How the data were processed

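Peak lists of 2 biological replicates in 1 group were used. Per the labels the build is ce11. Per the deposited file descriptions, ranked lists derive from alignments and a control, thresholded lists also from a further, unnamed input. The aligner and caller are not given in the sources used here. In each peak list the authors deposited a signal on an unstated scale. The deposited score follows the irreproducible discovery rate, and the authors' ranked lists hold its −log10. Kept peaks reached at most 0.00999. Without counts, neither depth nor counting error can be stated.

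Genes and starts came from Ensembl release 115, microRNA symbols and sequence from RefSeq. All 46 pathway genes were matched by name. Peaks matched at 50% or more of the shorter one, and the matching ranked peak of highest signal gave the replicate value. Of the 10 windows, 5 have no sequence reported here. Patterns were searched on both strands within 100 bp of the summit. Shares over all protein-coding genes are descriptions, without a test. By rule the text names the 9 members, other pathway genes with a conservative peak, and genes nearest to or overlapping a member's peak. Outside this rule, and after their values were seen, it names genes with 5 or more peaks, pathway genes without a peak and genes nearest to pathway peaks. Members, lists and patterns were chosen with earlier results of these data known. Alternatives were other lists, thresholds, windows, overlaps and assignments. The code was checked on simulated peaks. The work used matplotlib 3.10.9, pandas 2.3.3, NumPy 2.4.6, SciPy 1.17.1 and Python 3.11.15.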

Additional observations from a re-analysis of the deposited data

How the results depend on the processing

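Of 44 alternatives, 25 left their result close to the reported value and 19 moved it. Counts were called close within a wide margin, and the share of all protein-coding genes within a narrow one. The 6 genes with a peak fell to 2 among conservative peaks stronger than the list's median, and the 10 peaks likewise to 2. In the replicates' own lists the genes numbered 2 to 3 and the peaks 2 to 3. The median signal of these few peaks was 55.7 to 57.9. It is a single-replicate signal and cannot be compared with the combined one, although both medians count among those that moved. Over all conservative peaks the combined median was 98.7. Over all peaks of the replicates' own thresholded lists the median was 73.2 in replicate 1 and 64.6 in replicate 2. The members' peaks, at 57.9 and 55.7, thus lay below the median of each list. In the other pooled list the median of the members' peaks was 82.6. The genes called remained the same 6 with 2000 or 10000 bp upstream and with the summit required in the window. The share of all protein-coding genes with a peak was 7.6 to 8.03% in the replicates' own lists, 6.88% among the stronger peaks, 8.19% with 2000 bp upstream, 16.7% with 10000 bp and 5.51% by nearest start. By nearest start 7 of the other pathway genes were called instead of 11. They numbered 8 in each replicate's own list and among the stronger peaks, a fall that was still called close. Summits at a start of the member itself numbered 5 by the promoter limits of the report and 3 from 500 bp upstream to 100 bp downstream. Windows with any of the 9 patterns numbered 1 instead of 4 within 50 bp of the summit, and 7 with GAGAGA and ACGCAG, which were chosen after seeing the data. Searched over the whole peak, the 9 patterns were in 6, which was also called close. The count of 1 peak in both replicates' lists was unchanged at an overlap of 1 bp, at 80% and in the other pooled list. No paired analysis was possible because there is 1 group.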

Other observations

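Ranked peaks below the threshold gave further values at these genes. At lin-66 a ranked peak in the 3′ UTR, 5037 bp downstream of the first start, had a signal of 62.8 and a rate of 0.0113, just outside the threshold of 0.01. Its rate was 0.0936 in the ranked list behind the other pooled list. At lin-28 replicate 2 alone had a ranked peak 599 bp upstream of the first start, with a signal of 42.8 and a rate of 0.0137. At daf-12 a ranked peak 1694 bp downstream of the first start had a signal of 52.8 and a rate of 0.0381 in the pooled list.

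The lin-14 window held 40 pooled ranked peaks. The strongest that was not kept had a signal of 65.1, close to the 65.3 of the weakest that was kept, and lay in an intron 11470 bp downstream of the first start with a rate of 0.0639.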
